A study of Mus musculus with 8 samples.

Results

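The genes described here encode 10 proinflammatory cytokines or cytokine subunits that activated macrophages and microglia are known to make: Tnf, Il6, Il1a, Il12a, Il12b, Il23a, Il27, Ebi3, Il15 and Lif. They were found by their symbols and joined by identifier in both deposited tables, making up 10 of 31406 genes counted here, and all 10 passed the low-count filter that left 18756 genes for testing. Counts came from 8 libraries of wild-type mouse primary cultures labelled microglia. The methods describe cells from the striatum of neonatal C57/BL6 pups and list the interferon-γ as the human protein. Cultures were kept for 15 days, and activation by bacterial lipopolysaccharide (LPS) plus interferon-γ lasted 48 h. By their titles, 4 libraries received the adenosine A2A receptor antagonist SCH 58261 (A2A antagonist group) and 4 received SCH 58261 together with 2-Cl-IB-MECA, an agonist of the adenosine A3 receptor, at 200 nM (dual group). Ligands were given at 24, 32 and 40 h of activation, so activation and SCH 58261 are shared by both groups. The treatment field of the labels contradicts the titles, since it lists 2-Cl-IB-MECA in the 4 libraries whose titles have SCH 58261 alone and omits it in the other 4. The names of the count columns follow the titles, and every direction given here rests on them. The comparison asked whether the A3 receptor agonist altered these transcripts in cultures that already held the A2A receptor antagonist. Controls are not analysed here.

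Total counts ranged from 32630602 to 45878639 per library. Chi-square per degree of freedom between libraries of one group was 3.58 to 8.65, more than counting noise gives. No library was thus a repeat sequencing of another in its group. This check cannot tell libraries made from the same RNA or culture from separate ones. Over all 18756 genes, edgeR called 39 (9 higher and 30 lower in the dual group), with 2400 at an unadjusted p under 0.05. That count rested on single libraries: it was 172 without A2A antagonist replicate 1, 5 and 6 without replicates 2 and 3 of that group, and 0 without A2A antagonist replicate 4 or dual replicate 3 (1802 and 2092 at an unadjusted p under 0.05). The paper reports a high microglial purity by anti-CD11b labelling, which measures cells and not RNA. The label of the cultures was compared with cell type markers in the RNA. All 10 microglia markers passed the filter. The homeostatic marker P2ry12 stood at a mean of 0.715 FPKM (fragments scaled to gene length and library size) and Tmem119 at 3.18 FPKM, beside 46.0 FPKM for Csf1r and 419.6 FPKM for C1qa. Astrocyte markers ranged from 1.79 FPKM for Gjb6 to 256.2 FPKM for Aqp4 and 389.8 FPKM for Gfap. Fibroblast markers ranged from 2.63 FPKM for Lum to 95.3 FPKM for Dcn. In any library, markers of T and NK cells summed to at most 0.374 CPM (counts per 1000000 after scaling with TMM factors). Those of B cells summed to at most 0.526 CPM. Cd209a, Siglech, Ly6g, S100a9, Elane, Ncr1 and Cldn5 were not among the genes listed. Of the neutrophil markers, Camp stood at 7.08 FPKM, S100a8 at 3.84 FPKM and Ltf at 0.00518 FPKM. Among dendritic cell markers, Zbtb46 stood at 1.12 FPKM and Flt3 at 0.00692 FPKM. Transcripts of several cell types were thus present, and the cytokine levels are those of the whole culture. In such bulk RNA, fewer cells of a type and less RNA per cell cannot be told apart.

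As background, bacterial LPS acts through Toll-like receptor signalling to NF-κB, which drives transcription of most of these genes, and interferon-γ strengthens several of them. TNF, IL-6 and IL-1α act alone as ligands, whereas the IL-12 family consists of paired chains: the product of Il12b pairs with that of Il12a to form IL-12 and with that of Il23a to form IL-23, and the product of Ebi3 pairs with that of Il27 to form IL-27. Adenosine receptors are known to alter cytokine output of myeloid cells through cyclic AMP.

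Il1a was by far the most abundant of the transcripts when levels were set per gene length. The deposited FPKM averaged 146.3 for Il1a, which encodes IL-1α, a cytokine released from damaged cells, and this mean lay at percentile 98.7 of the genes tested. Tnf averaged 37.3 FPKM and Il6 35.8 FPKM. The ranges of these neighbours overlapped, and Tnf was above Il6 in 5 of 8 libraries. Ebi3 followed at 9.33 FPKM, then Lif at 3.26 FPKM, Il15 at 2.26 FPKM, Il12b at 1.75 FPKM and Il27 at 1.52 FPKM. From Lif to Il27 the range of each gene overlapped that of the next one, although Lif was above Il15, and Il15 above Il12b, within each of the 8 libraries. Il12a at 0.316 FPKM and Il23a at 0.120 FPKM formed the low end, at percentiles 13.6 and 4.36, and their ranges also overlapped. The steps from Il1a to Tnf, from Il6 to Ebi3, from Ebi3 to Lif and from Il27 to Il12a were larger than the spread over all 8 libraries.

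**Figure D1:**
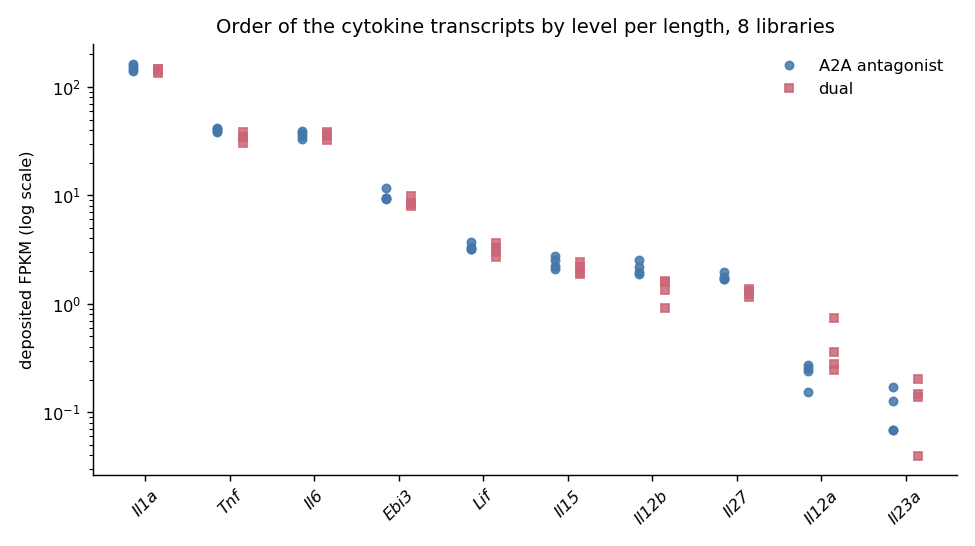
Deposited FPKM on a log axis for the 10 cytokine genes, ordered by their mean over 8 libraries, with circles for the A2A antagonist group and squares for the dual group (4 libraries each). Il1a stands alone at the top, from 134.4 to 163.9 FPKM, and Il12a and Il23a lie below 1 FPKM in every library.

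Between the groups, 8 of the 10 transcripts were lower and 2 higher in the dual group, and none passed an adjusted p of 0.05 in edgeR, where 0.208% of all genes tested did (0.0480% higher and 0.160% lower). At an unadjusted p under 0.05 there were 5 lower cytokines (Il12b, Tnf, Il27, Ebi3 and Il1a), beside 6.81% of all genes, and 1 higher (Il12a), beside 5.98%. The median log2 fold change of the 10 was -0.14, against 0.0038 over all genes tested, of which 48.5% were lower. Il12b and Il27 were the cytokine genes whose groups did not overlap, both lower in the dual group. Among all genes tested the groups did not overlap for 7.42%, with 4.06% lower and 3.36% higher. In the 8 fits that left out 1 library each, 0 or 1 of the 10 passed the adjusted threshold and 3 to 7 had an unadjusted p under 0.05, as 9.49 to 13.9% of all genes tested in those fits did. Over the alternatives that gave a p, it stayed under 0.05 for Tnf, Il12b and Il27 in 15 of 15, for Ebi3 in 12 of 15, for Il12a in 9 of 14 and for Il1a in 7 of 15. All alternatives drew on the same 8 libraries, so they are not independent repeats. How often other genes stayed under 0.05 across them was not computed.

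**Figure D2:**
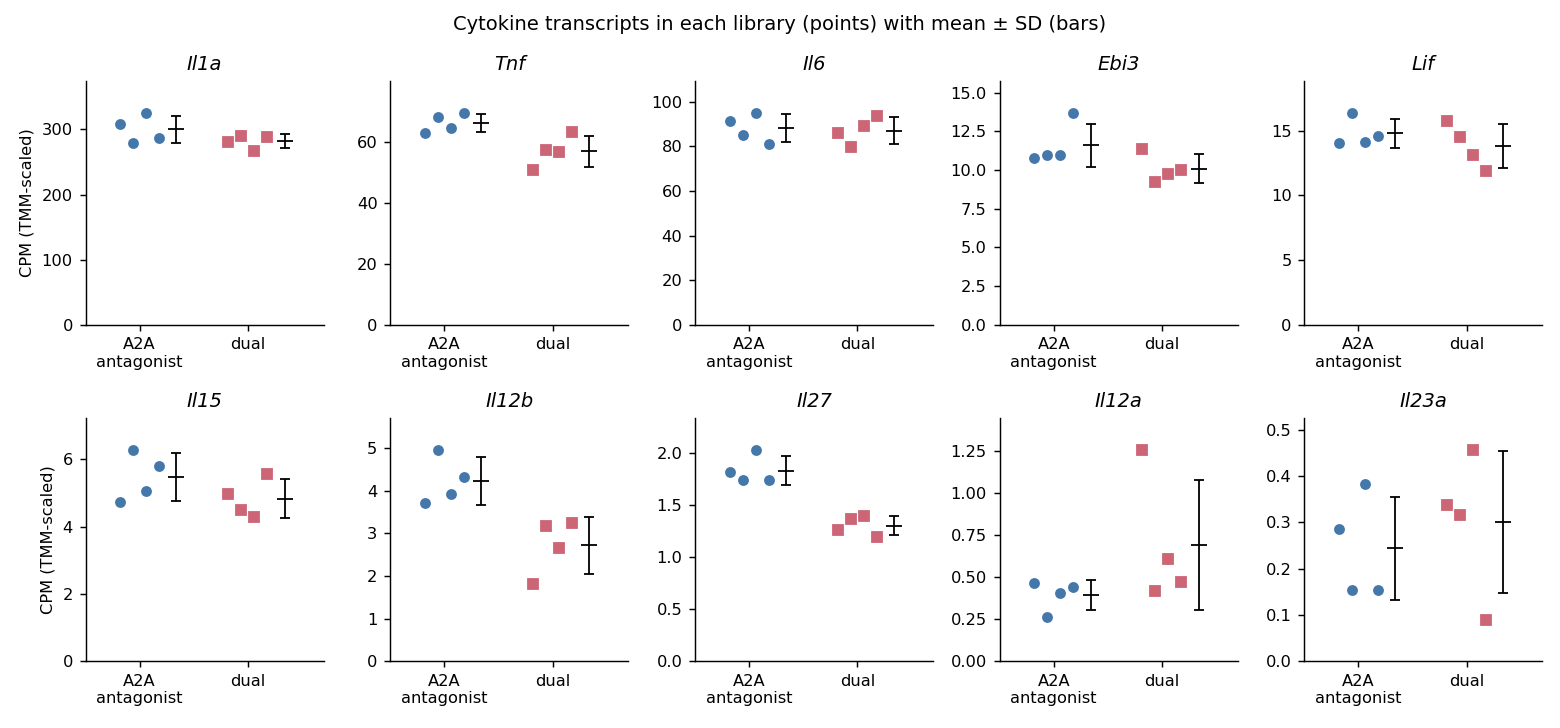
CPM (linear axes from 0) of each cytokine transcript in the 4 A2A antagonist libraries (circles) and the 4 dual libraries (squares), with mean ± SD as bars. The groups are separate for Il12b and Il27 and touch for Tnf, while a single dual library at 1.26 CPM sets the mean of Il12a.

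The promoters of Tnf, Il12b and Il6 are shown because Tnf and Il12b had the smallest p-values of the set and Il6 the largest. They are RefSeq sequences of GRCm38.p6, 250 bases before to 50 bases after the transcript start, on the strand of the gene. Of the 10 genes, 7 matched the promoter table, and Il15, Il23a and Il27 did not. Capitals mark matches, on either strand, to a κB sequence (GGG and TTCC with any 3 bases between them), an AP-1 sequence (TGANTCA), a C/EBP sequence (TTNNGCAA) or a TATA box (TATAAA).
Tnf (chr17:35201958-35202257, minus strand): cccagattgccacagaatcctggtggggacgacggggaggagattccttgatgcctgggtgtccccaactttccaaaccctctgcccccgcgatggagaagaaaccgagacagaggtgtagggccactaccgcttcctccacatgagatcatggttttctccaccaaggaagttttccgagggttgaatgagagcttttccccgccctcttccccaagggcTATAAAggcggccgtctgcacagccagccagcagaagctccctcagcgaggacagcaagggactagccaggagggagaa
Il12b (chr11:44399813-44400112, plus strand): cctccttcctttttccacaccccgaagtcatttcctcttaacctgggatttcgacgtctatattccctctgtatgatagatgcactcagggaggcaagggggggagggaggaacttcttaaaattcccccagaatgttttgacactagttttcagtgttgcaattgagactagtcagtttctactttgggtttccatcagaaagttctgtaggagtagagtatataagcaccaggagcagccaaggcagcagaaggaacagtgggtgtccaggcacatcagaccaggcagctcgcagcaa
Il6 (chr5:30012864-30013163, plus strand): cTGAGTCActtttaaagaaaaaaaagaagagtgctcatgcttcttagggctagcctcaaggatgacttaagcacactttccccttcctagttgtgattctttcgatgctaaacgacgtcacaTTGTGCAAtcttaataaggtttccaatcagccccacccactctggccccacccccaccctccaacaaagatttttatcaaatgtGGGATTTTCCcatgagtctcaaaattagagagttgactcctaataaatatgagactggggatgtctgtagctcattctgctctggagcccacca

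In these windows the Il6 promoter held the κB sequence, which began 44 bases before the start, an AP-1 sequence at -249 and a C/EBP sequence at -128. The Tnf promoter held a TATA box at -29, and the Il12b window held none of the 4 letter patterns. Among 32851 promoters of the same length, 5.56% held the κB pattern, 7.81% the AP-1 pattern, 10.8% the C/EBP pattern and 13.6% the TATA box. A CRE core (TGACG, not in capitals) lay at -135 in Il6 and in 20.8% of promoters. The other windows held AP-1 sequences in Il1a (-12) and Lif (-228) and a TATA box in Il1a (-32). No window held the ISRE or PU.1 pattern, found in 3.44% and 3.20% of promoters. These are exact matches of letters only, so a site that departs from a pattern is not marked.

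Tnf (ENSMUSG00000024401, chromosome 17, 35199381 to 35202007, GRCm38, minus strand) encodes tumor necrosis factor, the ligand of TNFR1 and TNFR2. It was measured at 62.9, 68.0, 64.7 and 69.5 CPM in A2A antagonist replicates 1 to 4 and at 50.6, 57.4, 56.5 and 63.1 CPM in dual replicates 1 to 4. Of the dual libraries, 3 lay below every antagonist library, and replicate 4 exceeded the lowest antagonist library by a narrow margin. The mean was 66.3 ± 3.03 CPM (SD, n = 4) for the antagonist alone, against 56.9 ± 5.12 CPM (SD, n = 4) for the pair of ligands, a log2 fold change of -0.22 (SE 0.05, 95% interval -0.33 to -0.10) that did not pass in edgeR (adjusted p 0.0912). The call depended on the processing: Tnf passed without the low-count filter (0.00370, with 1.17% of genes called), in the DESeq2 Wald test (0.00983, with 4.70% called among the genes that DESeq2 gave an adjusted p, which 7 of the 10 cytokines lacked) and without dual replicate 4 (0.0375, with 0.258% called). The log2 fold change was negative in each of the 15 alternatives, from -0.27 to -0.17, with adjusted p-values of 0.00370 to 0.272.

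Il6 (ENSMUSG00000025746, chromosome 5, 30013114 to 30019981, plus strand) encodes interleukin-6, the acute-phase cytokine that signals through gp130. Its levels were 91.6, 85.2, 95.0 and 81.2 CPM with the antagonist and 86.0, 79.6, 88.9 and 93.8 CPM with both ligands. The groups were interleaved, with a mean of 88.3 ± 6.20 CPM (SD, n = 4) in the former and 87.1 ± 5.91 CPM (SD, n = 4) in the latter. Il6 had a log2 fold change of -0.018 (SE 0.05, edgeR adjusted p 0.927), whose 95% interval of -0.13 to 0.09 lay within 1.5-fold in both directions. Its sign changed without A2A antagonist replicate 3 (0.019) and without dual replicate 2 (0.022).

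Il1a (ENSMUSG00000027399, chromosome 2, 129299610 to 129309972, minus strand) had the deepest counts, 9156 to 13603 per library. The antagonist libraries held 309.1, 279.3, 325.5 and 287.5 CPM and the dual libraries 280.7, 290.0, 266.8 and 289.1 CPM. The dual libraries lay at the low side of the antagonist range, with replicate 3 alone beneath it. The difference for Il1a was -0.09 on the log2 scale (SE 0.04, 95% interval -0.18 to -0.00066, edgeR adjusted p 0.387). Without A2A antagonist replicate 3, the highest library, it was -0.052 (unadjusted p 0.223). Of its exonic bases, 222 overlap Gm14023 on the opposite strand. Since strand use in counting was not stated, reads of such partners cannot be told apart.

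Within the IL-12 family the shared chain Il12b was lower with both ligands, while the Il12a values were higher. Il12b (ENSMUSG00000004296, chromosome 11, 44400063 to 44414033, plus strand) was measured at 3.71, 4.97, 3.92 and 4.31 CPM with the antagonist, from 143 to 226 counts, and at 1.81, 3.18, 2.66 and 3.25 CPM with both ligands, from 59 to 144 counts. Every dual library lay below every antagonist library. The log2 fold change was -0.62 (SE 0.16, 95% interval -0.95 to -0.30), with an edgeR adjusted p of 0.0907. Il12b passed without the low-count filter (adjusted p 0.00387), and its adjusted p ranged from 0.00387 to 0.260 over the alternatives that gave one. DESeq2 gave it no adjusted p (unadjusted p 0.000239). Without dual replicate 1, the lowest library, the log2 fold change was -0.49.

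Il12a (ENSMUSG00000027776, chromosome 3, 68690644 to 68698547, plus strand), the partner chain in IL-12, had only 12 to 41 counts per library. It stood at 0.467, 0.264, 0.407 and 0.440 CPM with the antagonist and at 1.26, 0.421, 0.610 and 0.474 CPM with both ligands. Of the dual libraries, 3 lay above the antagonist range and replicate 2 within it. Dual replicate 1 was far above the other libraries, the same library that was lowest for Il12b and Tnf. For Il12a the log2 fold change was 0.78 (SE 0.35, 95% interval 0.04 to 1.51, edgeR adjusted p 0.358), and it was 0.36 without dual replicate 1 (0.36 to 0.95 over the 8 libraries left out in turn). Il23a (ENSMUSG00000025383, chromosome 10, 128296139 to 128298752, minus strand), the partner chain in IL-23, had 4 to 21 counts per library, 0.285, 0.154, 0.383 and 0.154 CPM against 0.337, 0.315, 0.458 and 0.0902 CPM. The groups overlapped fully. For Il23a the log2 fold change was 0.31 (SE 0.45, edgeR adjusted p 0.833) with a 95% interval of -0.64 to 1.25, so a difference of 1.5-fold in either direction was not excluded. It ranged from -0.014 without dual replicate 3 to 0.63 without dual replicate 4.

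Il27 (ENSMUSG00000044701, chromosome 7, 126589010 to 126594941, minus strand), one chain of IL-27, gave groups that were both narrow and separate. Its levels were 1.81, 1.74, 2.03 and 1.74 CPM with the antagonist (70 to 85 counts) and 1.26, 1.37, 1.39 and 1.20 CPM with both ligands (41 to 64 counts). No dual library reached the lowest antagonist library. The coefficient of variation within the groups was 7.64% and 7.15%, below the 11.3% and 13.8% that counting error alone would give for counts of this size. Il27 had a log2 fold change of -0.49 (SE 0.16, 95% interval -0.82 to -0.15) with an edgeR adjusted p of 0.192, and it ranged from -0.53 to -0.43 over the 15 alternatives. Il27 shares 103 exonic bases with Apobr, which lies on the opposite strand. Ebi3 (ENSMUSG00000003206, chromosome 17, 55952640 to 55957022, plus strand), the other chain of IL-27, had 10.8, 11.0, 11.0 and 13.7 CPM with the antagonist and 11.4, 9.23, 9.74 and 9.99 CPM with both ligands. The groups overlapped through dual replicate 1, and antagonist replicate 4 stood above the rest. Ebi3 had a log2 fold change of -0.21 (SE 0.09, 95% interval -0.39 to -0.025, edgeR adjusted p 0.318), and -0.12 without antagonist replicate 4 (-0.27 to -0.12 over the 8 libraries left out in turn). Ebi3 shares 270 exonic bases with the antisense gene Gm16712.

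**Figure D3:**
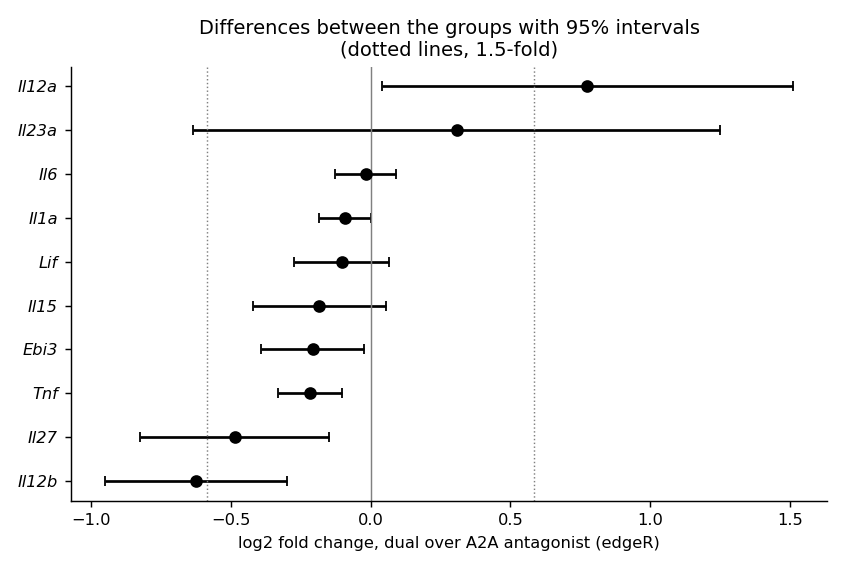
Log2 fold changes of the 10 cytokine transcripts (dual over A2A antagonist, edgeR) with 95% intervals from 4 libraries per group, and dotted lines at 1.5-fold. The intervals of Il12b, Il27, Tnf, Ebi3 and Il1a lie below 0, that of Il12a above it, and those of Il6, Lif, Il15 and Il23a include 0.

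The balance of paired chains was compared within libraries, where library scaling cancels. The Il12b to Il12a ratio of counts had a log2 of 2.96, 4.18, 3.23 and 3.26 with the antagonist and 0.520, 2.88, 2.10 and 2.75 with both ligands. The groups did not overlap. The difference was -1.34 on the log2 scale, with a two-sided exact permutation p of 0.0286, the smallest that 70 arrangements allow, and of 0.0857 after Benjamini-Hochberg adjustment over the 3 ratios. Without dual replicate 1 the difference was -0.83. Per length, Il12b exceeded Il12a by 6.87 to 16.3 times in the antagonist libraries and by 1.24 to 6.54 times in the dual libraries. The Il12b to Il23a ratio differed by -0.85 (exact permutation p = 0.286, adjusted 0.286), with overlapping groups. It was -1.43 without dual replicate 4 (exact permutation, adjusted p = 0.0857) and -0.55 without dual replicate 1. For Ebi3 to Il27 the difference was 0.29 (exact permutation p = 0.114, adjusted 0.171), and Ebi3 exceeded Il27 per length by 4.78 to 8.01 times over the 8 libraries.

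**Figure D4:**
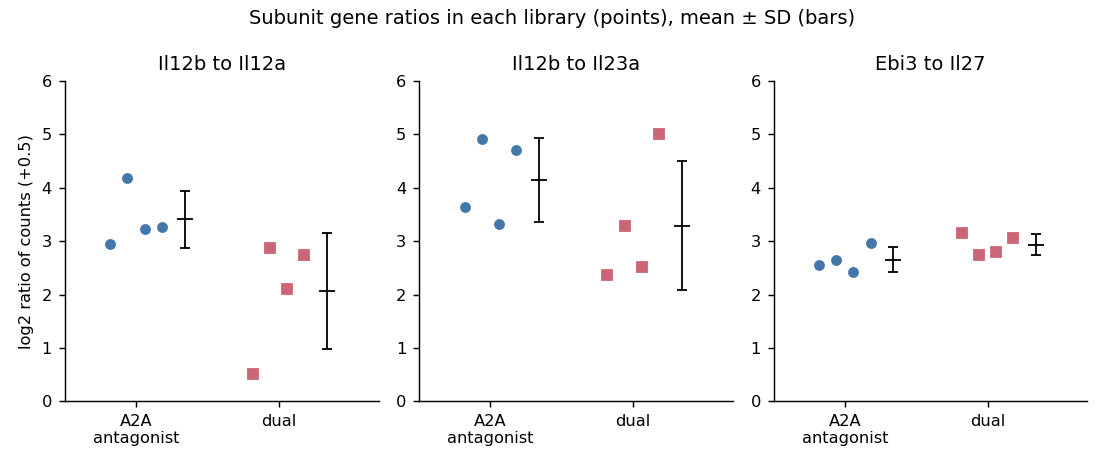
Log2 ratio of counts (0.5 added to each) of the subunit genes that pair in IL-12, IL-23 and IL-27, per library, with mean ± SD of 4 libraries as bars. The Il12b to Il12a ratio is lower in all 4 dual libraries, most of all in replicate 1 at 0.520, and the groups overlap for the other ratios.

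The remaining transcripts encode single-chain cytokines. Il15 (ENSMUSG00000031712, chromosome 8, 82331632 to 82403222, minus strand), a growth factor of NK and memory T cells, had 4.74, 6.29, 5.05 and 5.81 CPM with the antagonist and 4.97, 4.49, 4.29 and 5.57 CPM with both ligands. The groups overlapped, and the log2 fold change was -0.18 (SE 0.11, 95% interval -0.42 to 0.05, edgeR adjusted p 0.528). Without antagonist replicate 2, the highest library, it was -0.11, and without dual replicate 4 it was -0.26 (edgeR unadjusted p 0.0399, adjusted p 0.386). Lif (ENSMUSG00000034394, chromosome 11, 4257557 to 4272514, plus strand), a member of the IL-6 family that signals through gp130 with its own receptor, had 14.0, 16.4, 14.1 and 14.6 CPM against 15.8, 14.5, 13.1 and 11.9 CPM. These groups also overlapped. Its log2 fold change was -0.10 (SE 0.08, 95% interval -0.27 to 0.07, edgeR adjusted p 0.638), -0.039 without dual replicate 4 and -0.17 without dual replicate 1 (unadjusted p 0.0430, adjusted p 0.350).

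Genes around these cytokines were read from 5 lists. None of the 16 genes listed for NF-κB, its inhibitors and its partner transcription factors was called. In the dual group 15 were lower and 1 was higher, their median being -0.07 on the log2 scale, and 6 were lower at an unadjusted p under 0.05. These 6 were Irf1, Rela and the inhibitor genes Nfkbia, Nfkbib, Nfkbie and Tnfaip3. The factor genes Nfkb1, Nfkb2, Relb and Rel had unadjusted edgeR p-values of 0.105 to 0.775. Over all genes tested, 48.5% were lower, 6.81% were lower at an unadjusted p under 0.05, and the median was 0.0038. Irf1, an interferon-induced activator of Il12a and Il27, averaged 134.0 ± 4.97 CPM (SD, n = 4) for the antagonist alone and 119.2 ± 1.87 CPM (SD, n = 4) in dual libraries, or -0.17 on the log2 scale (SE 0.04, edgeR adjusted p 0.0557) with groups that did not overlap. The NF-κB feedback inhibitors Tnfaip3 and Nfkbia, picked after their values were seen, had log2 fold changes of -0.16 and -0.17 (adjusted p 0.0606 and 0.0686). Irf8, the list member on the higher side, had 0.07 (adjusted p 0.546). Among genes for release, processing and natural antagonists, 1 of 9 was called. This was Il18bp, the soluble decoy of IL-18, which fell from 38.6 CPM to 32.9 CPM, a log2 fold change of -0.23 (SE 0.04, edgeR adjusted p 0.0309). Il18bp was no longer called without A2A antagonist replicate 2, 3 or 4 or without dual replicate 2 or 3, with adjusted p-values of 0.0716 to 0.142.

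Of 15 receptor genes, 14 passed the filter, and of these 6 were higher, 8 were lower and none was called (median log2 fold change -0.013). At an unadjusted edgeR p under 0.05, 2 were higher and 2 lower, beside 5.98% and 6.81% of all genes tested. The lower ones were Tnfrsf1b, which encodes TNFR2, at -0.17 (SE 0.05, edgeR adjusted p 0.145) and Il12rb1 at -0.79 (SE 0.29, adjusted p 0.241). Il12rb1 had only 17 to 56 counts per library. The higher ones were Il6st, which encodes gp130, at 0.08 (SE 0.03, adjusted p 0.270) and Il6ra at 0.11 (SE 0.04, adjusted p 0.323). Il12rb2 did not pass the filter. The 13 regulators of cytokine mRNA stability divided into 7 higher and 6 lower, none called (median 0.0069). Mapkapk2, the p38 target kinase, was at -0.12 (adjusted p 0.111) and Rc3h2, which encodes Roquin-2, at 0.15 (adjusted p 0.205). Of 18 other inflammatory cytokines, 16 passed the filter, 5 of them higher, 11 lower and none called (median -0.088). Il10, the anti-inflammatory cytokine, had 3.90 CPM against 2.86 CPM with groups that did not overlap (log2 fold change -0.45, SE 0.14, edgeR adjusted p 0.182), and the growth factor Csf3 was at 0.06 (adjusted p 0.776).

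**Figure D5:**
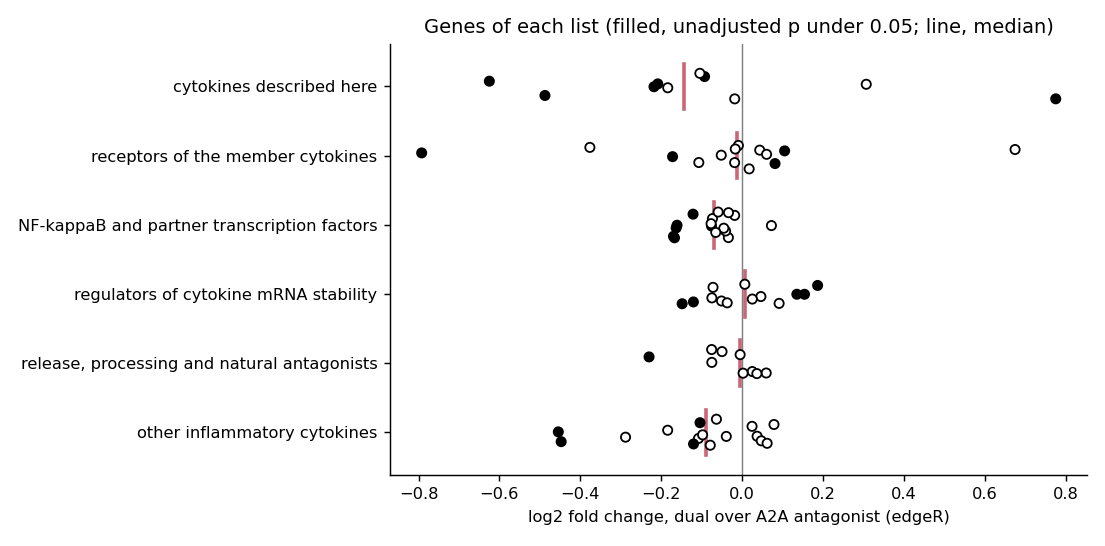
Log2 fold changes (dual over A2A antagonist) of the 10 cytokine genes and of the genes of 5 related lists that passed the low-count filter, filled where the unadjusted edgeR p is under 0.05, with the median of each list as a line. Of the NF-κB list, 15 of 16 points lie below 0, where 48.5% of all genes tested do, and the points of the receptor and mRNA stability lists fall on both sides.

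The summed markers of each cell type overlapped between the groups, narrowly so for microglia and the oligodendrocyte lineage, both on the lower side with both ligands. Microglia markers summed to 1242 to 1339 CPM per library with the antagonist and 1175 to 1248 CPM with both ligands. Of the 10, 6 were lower. At an unadjusted edgeR p under 0.05, 3 were lower (C1qa, C1qb and Aif1) and 1 was higher (Csf1r), beside 6.81% and 5.98% of all genes tested. C1qa was called (log2 fold change -0.24, edgeR adjusted p 0.0240). Its adjusted p was 0.0648 to 0.0932 when dual replicate 3 or A2A antagonist replicate 2, 3 or 4 was left out. C1qb had -0.18 (adjusted p 0.0651) and Aif1 -0.21 (adjusted p 0.110), while the microglial receptor gene Csf1r had 0.11 (adjusted p 0.171). Fibroblast markers summed to 2615 to 2927 CPM and 2680 to 3272 CPM, with 5 of 6 higher. Astrocyte markers summed to 5780 to 6050 CPM and 5833 to 6288 CPM, with 6 of 8 higher. No fibroblast or astrocyte marker was called, and 48.5% of all genes tested were lower. Oligodendrocyte lineage markers summed to 423.2 to 455.4 CPM with the antagonist and 394.7 to 423.8 CPM with both ligands. The other lists summed to 33.2 to 46.4 CPM (endothelial and mural cells), 45.9 to 50.7 CPM (neurons), 9.54 to 11.5 CPM (dendritic cells) and 6.93 to 9.27 CPM (neutrophils) over the 8 libraries. The part of differences in single markers in the cytokine values was not tested.

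The genes whose pattern over the 8 libraries was nearest to each cytokine were found by the root mean square distance between z-scored log2 CPM, over 13737 genes whose log2 CPM averaged 1 or more. For 7 of the 10 cytokines, those at or above that level, the distance to the nearest gene was 0.169 to 0.306, where the median gene was at 1.39 to 1.42. The nearest gene was the smallest of 13737 distances over 8 values, so the search itself places it below the median. Whether the likeness exceeds that of unrelated genes was not tested. Nearest to Tnf were Cdk2ap1 (0.169) and Suclg1 (0.285). Nearest to Il12b were Snn (0.222) and Gas7 (0.267), and to Il1a Rpa3 (0.257) and Usp6nl (0.291). Lif was nearest to Ezr (0.171) and Gmppa (0.216), Il6 to Clec2d (0.267) and Psma3 (0.269), Il15 to Gm10221 (0.259) and Gm5451 (0.343), and Ebi3 to Gm8566 (0.306) and Aldh5a1 (0.310). None of these 14 neighbours was called between the groups, Cdk2ap1 coming closest with a log2 fold change of -0.25 (edgeR adjusted p 0.0686).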

How the data were processed

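RNA of 8 activated cultures was sequenced, 4 in each group. According to the study's methods the authors aligned reads with HISAT2 to the mm10 mouse genome and counted them per gene with featureCounts 1.5.0-p3, and they deposited raw read counts and FPKM values per library. Strand use in counting was not stated. The methods give a total of 4 pregnant animals but do not say that libraries came from separate cultures or litters. The p-values therefore measure the spread between these samples only. The deposited columns of fold changes and p-values, which hold the authors' own comparisons, were not used, and neither were 9 columns of per-sample values that match no sample analysed here.

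Groups were taken from sample titles. Counts were analysed with edgeR 4.0.16 in R 4.3.3 (filterByExpr with a minimum count of 10, TMM factors, quasi-likelihood F test, Benjamini-Hochberg adjustment over 18756 genes, threshold 0.05). The procedure was tested on counts simulated from the fitted model, with changes of 1.5-fold or more set in well-counted genes. Smaller changes, and changes at counts as low as those of Il12a, Il23a and Il27, were not simulated. DESeq2 1.42.0, other filters and scalings, a replicate block and leaving out each library were alternatives. CPM compares groups, and the deposited FPKM compares genes, because it is set per gene length. The library size implied by FPKM was 99.6 to 101.3% of the total count. Subunit ratios used counts plus 0.5 and a two-sided exact permutation test.

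The 10 cytokine genes, the 5 pathway lists and the 10 cell type lists were chosen with earlier results of these data known. Genes named were the 10 cytokines, those called in a pathway list (otherwise the smallest p in each direction), and the 2 genes nearest in pattern to each cytokine that averaged 1 or more in log2 CPM. Tnfaip3, Nfkbia, the other NF-κB list genes named by their p-values, Il12rb1, Il6ra, C1qb and Aif1 were added after their values were seen. Cell type markers and genes that overlap a cytokine gene were named beside the results they touch.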

Additional observations from a re-analysis of the deposited data

Results flagged for a closer look

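Ebi3, a chain of IL-27, had 1 library far from the others of its group. A2A antagonist replicate 4 stood at 13.7 CPM, and the other 3 libraries of that group at 10.8 to 11.0 CPM. The gap to the nearest library was 0.920 of the whole range of the group, above Dixon's critical value for 4 samples. This was 1 of 26 groups examined, and chance flags about 1 group in 20. The log2 fold change of Ebi3 was -0.21 with this library and -0.12 without it.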

How the results depend on the processing

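Over all genes, the 39 calls (9 higher, 30 lower) became 366 (113 higher, 253 lower) without the low-count filter and 417 (119 higher, 298 lower) with DESeq2, and the cause was not tested. Leaving out 1 library at a time gave 0 to 172 calls, 0 to 46 higher and 0 to 126 lower. Of the 10 cytokines, 2 were called without the filter (Tnf at -0.22 and Il12b at -0.63), 1 of the 3 with an adjusted p in DESeq2 (Tnf at -0.22, where 7 had none), and 0 to 1 with a library left out (Tnf at -0.27 without dual replicate 4). With a library left out, 3 to 7 had an unadjusted p under 0.05, the lowest number without dual replicate 3. The sign turned for Il6, at 0.019 without A2A antagonist replicate 3 and 0.022 without dual replicate 2, and for Il23a, at -0.014 without dual replicate 3. With libraries left out in turn, Il6 ranged from -0.056 to 0.022 and Il23a from -0.014 to 0.63. Il12a and Il23a gave no value with a minimum count of 30, and their counts limit what can be seen of IL-12 and IL-23.

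Replicate numbers are shared by the groups, but same-numbered libraries did not deviate together (correlations 0.021, -0.053, 0.041 and -0.011 over genes). With the replicate number as a block there were 17 calls (3 higher, 14 lower) and none among the cytokines. In that fit 5 of the cytokines had an unadjusted p under 0.05, as did 1985 of all 18756 genes tested. Il18bp was not called with the block (adjusted p 0.0929). For the Il12b to Il12a ratio, the block gave an exact sign-flip p of 0.188 after adjustment, in a design whose smallest unadjusted p is 0.125.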
